A study of Homo sapiens with 8 samples.

Results

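The comparison described here set T47D cells given estradiol (E2) for 2 days against cells given vehicle for the same time, across both siRNAs of the study. T47D is an established luminal breast cancer line that carries the estrogen receptor. The arrays were chosen by their labels: 4 E2 arrays against 4 vehicle arrays, which are all 8 arrays of the series. All 4 groups, of 2 arrays each, had been kept in steroid-deprived medium for 2 days and then transfected with 200 nM siRNA by lipofection. The groups were control siRNA with ethanol vehicle, control siRNA with 1 nM E2, 17β-HSD1 siRNA with ethanol vehicle, and 17β-HSD1 siRNA with 1 nM E2. The control siRNA was a scrambled sequence, the 17β-HSD1 siRNA was a mixture of several siRNAs, and medium with E2 or vehicle was added 48 h after transfection. Vehicle cells were therefore also transfected, steroid-deprived cells in medium with insulin, and the replicates, numbered 1 and 2, came from independent cell cultures of 1 line. The arrays were of the Affymetrix Human Gene 1.0 ST type, and 18417 genes were represented by 1 probe set each.

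Estradiol binds the estrogen receptor, ESR1, a transcription factor that attaches to estrogen response elements, most of them in enhancers far from the genes they serve, and recruits coactivators or corepressors. In luminal breast cancer cells it induces secreted factors and other transcription factors and brings cells from G1 into S phase through cyclin D and MYC, after which the E2F factors drive genes of DNA replication, and B-MYB and FOXM1 drive genes of mitosis. It also lowers a set of genes that includes ERBB2 and genes of the quiescent state.

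The targeted gene HSD17B1, which encodes the enzyme that reduces estrone to estradiol, changed by -0.10 ± 0.16 (log2 difference ± SE, 4 arrays against 4) between E2 and vehicle, with a limma adjusted p of 0.987. Its log2 signal ran from 8.56 to 9.35 over the 4 control siRNA arrays and from 8.32 to 8.41 over the 4 arrays with 17β-HSD1 siRNA, so the arrays were ordered as their siRNA labels say. The first replicate of 17β-HSD1 siRNA with vehicle was the least like the rest, with a mean correlation of 0.976 with the other arrays against 0.984 to 0.988 for the others. The 7 luminal markers, among them KRT8, KRT18, GATA3 and FOXA1, all had a mean signal above the median of the measured genes, as did 4 of 10 basal, 1 of 12 fibroblast, 1 of 11 immune and 1 of 10 endothelial markers. The summed log2 signal of each of these lists overlapped between the E2 and vehicle arrays, from 81.9 to 82.6 against 80.3 to 83.6 for luminal and from 66.4 to 67.5 against 65.7 to 71.2 for immune markers, and no basal, fibroblast, immune or endothelial marker was called. These are bulk samples, in which fewer cells of a kind, for example fewer dividing cells, and less RNA per cell cannot be told apart.

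With E2, 257 genes were higher (1.4% of those tested) and 45 were lower (0.244%) at a limma adjusted p below 0.05, where the adjustment is Benjamini-Hochberg over all tested probe sets. The median change over all genes was -0.02, and 41.9% of them had a positive change. Among called genes the rises were the larger: 42 of the 257 were at least 2-fold and their median was 1.70-fold. The median of the 45 falls was 0.617-fold, and only FBXO32 of the 45 fell by 2-fold or more. The largest fall of any gene, -1.25 for CDH10, was not called. All 4 E2 arrays lay above all 4 vehicle arrays for 217 of the 257 genes (2.99% of all genes did so), and below them for 36 of the 45 (2.08%). Lists of cell cycle genes held 137 of the 257 higher genes and none of the 45 lower ones. Single arrays weighed on these counts, and 86 of the 257 higher and 5 of the 45 lower genes were called in each of the 8 fits that left out 1 array. There were 181 higher (0.983%) and 73 lower genes (0.396%) without replicate 1 of 17β-HSD1 siRNA with vehicle, 118 (0.641%) and 10 (0.0543%) without replicate 1 of 17β-HSD1 siRNA with E2, and 105 (0.57%) and 8 (0.0434%) without its replicate 2. Without replicate 2 of control siRNA with E2 157 were higher (0.852%) and 28 lower (0.152%), while 258 were higher (1.4%) both without its replicate 1, with 27 lower (0.147%), and without replicate 2 of 17β-HSD1 siRNA with vehicle, with 26 lower (0.141%). With the replicate number as a block 358 genes were higher (1.94%) and 109 lower (0.592%).

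Among estrogen-induced targets, 15 of 34 measured genes rose and none fell, and 32 of the 34 had a positive change, with a median of 0.56. This list, like the others here, was chosen with earlier results of these data known, so its counts describe its members and are not a test. There were 7 risen members without replicate 1 of 17β-HSD1 siRNA with E2 and 6 without its replicate 2. CXCL12, a chemokine that signals through CXCR4, had the largest change of any gene. Its log2 signal read 8.79 and 7.62 in the vehicle arrays against 10.94 and 11.54 in the E2 arrays with control siRNA, and 7.45 and 7.55 against 10.46 and 10.76 with 17β-HSD1 siRNA. The E2 arrays were thus all at least 1 log2 unit above every vehicle array, and the averaged rise was 8.41-fold (log2 change 3.07 ± 0.22, limma adjusted p = 0.000249). GREB1, a coactivator of the estrogen receptor, read 8.65 and 8.38 in the vehicle arrays against 10.54 and 10.61 in the E2 arrays with control siRNA. With 17β-HSD1 siRNA the GREB1 values were 9.08 and 8.82 against 10.20 and 10.43. Its rise was 3.28-fold (1.71 ± 0.12) and its groups did not overlap with either siRNA.

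PGR, the progesterone receptor gene, read 10.13 and 10.10 in the vehicle arrays against 10.91 and 11.41 in the E2 arrays with control siRNA, and 10.04 and 10.16 against 10.98 and 11.30 with 17β-HSD1 siRNA. The 4 vehicle arrays nearly coincided for this gene and no E2 array overlapped them, and the rise was 2.06-fold (1.04 ± 0.13). MYBL1, which encodes the transcription factor A-MYB, rose 3.59-fold (1.85 ± 0.16), from 7.17 to 8.15 in the vehicle arrays to 8.89 to 9.94 in the E2 arrays. MYB, its better known relative, rose 1.86-fold (0.89 ± 0.15). Others of the list were OLFM1, an olfactomedin gene, at 1.99-fold, ELOVL2, a fatty acid elongase, at 1.96-fold, RERG, a RAS-like growth inhibitor, at 1.93-fold, the HSP90 cochaperone gene FKBP4 at 1.75-fold, the carbonic anhydrase gene CA12 at 1.68-fold and TPD52L1 at 1.66-fold, with limma adjusted p between 0.0027 and 0.0138. Weaker evidence came with SLC7A5, the large neutral amino acid transporter (1.60-fold, adjusted p = 0.0345), and the small heat shock protein gene HSPB8 (2.04-fold, adjusted p = 0.0497), whose E2 and vehicle arrays overlapped.

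**Figure D1:**
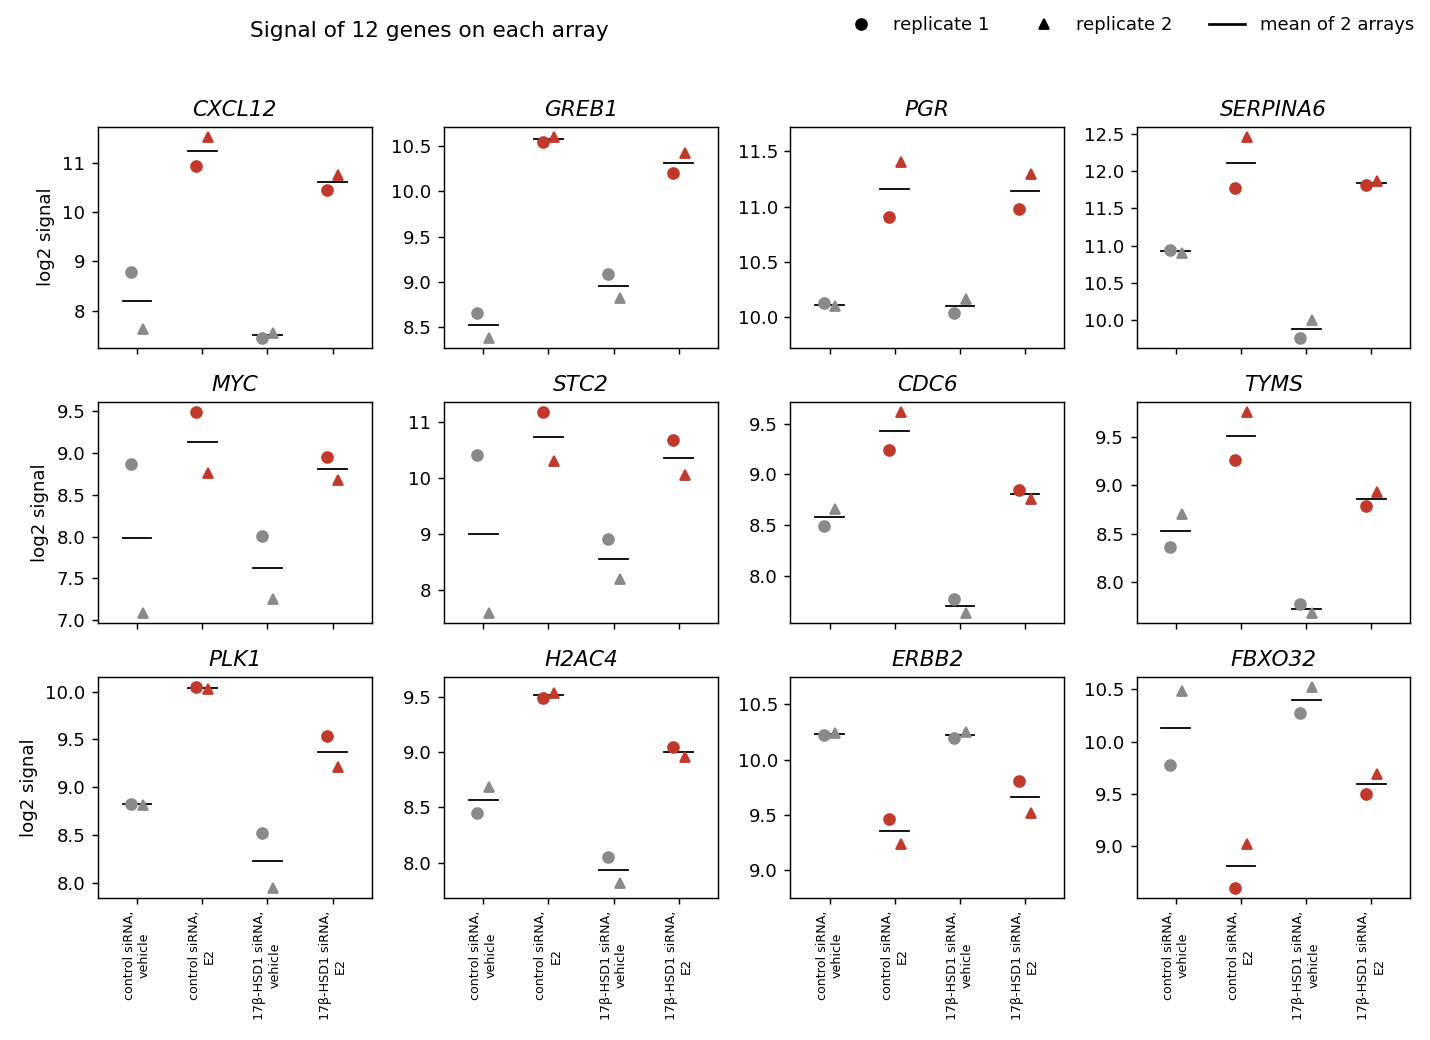
Log2 signal (y axis, a separate range in each panel) of 12 genes on each of the 8 arrays, by group along the x axis. Circles are replicate 1, triangles replicate 2, black lines the mean of 2 arrays, grey is vehicle and red is E2. The E2 points of CXCL12, GREB1, PGR and SERPINA6 all lie above the vehicle points, those of ERBB2 and FBXO32 below them, and replicate 1 of control siRNA with vehicle sits among the E2 points for MYC and STC2.

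Several textbook targets did not pass the threshold. MYC, the growth-promoting transcription factor gene, read 8.87 and 7.09 in the vehicle arrays against 9.49 and 8.77 in the E2 arrays with control siRNA, and 8.00 and 7.26 against 8.95 and 8.67 with 17β-HSD1 siRNA. Each E2 array was above the vehicle array of the same siRNA and number, but replicate 1 of control siRNA with vehicle lay above replicate 2 of both E2 groups. The MYC change was 1.17 ± 0.33 with a limma adjusted p of 0.148, or 0.00806 with the replicate block and 0.166 with a crossed block, in which the 2 control siRNA, vehicle arrays exchange numbers. Leaving out that vehicle array gave 1.61 ± 0.21 and an adjusted p of 0.00511, and leaving out the other array of its group gave 0.72 ± 0.21 and 0.214. STC2, a secreted glycoprotein gene named here after its values were seen, had the same pattern, at 10.42 and 7.59 in the vehicle arrays against 11.18 and 10.30 in the E2 arrays with control siRNA, and 8.92 and 8.19 against 10.69 and 10.05 with 17β-HSD1 siRNA. Its change was 1.78 ± 0.48, with a limma adjusted p of 0.123, or 0.00749 with the block and 0.142 with the crossed block. It was 2.48 (adjusted p = 0.000904) without replicate 1 of control siRNA with vehicle and 1.07 (adjusted p = 0.0695) without its replicate 2.

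TFF1, a secreted trefoil peptide and a classical estrogen marker, changed by 0.34 ± 0.18 (limma adjusted p = 0.684), and its vehicle arrays, from 7.26 to 7.94, overlapped the E2 arrays, from 7.72 to 8.51. CCND1, the cyclin D1 gene, changed by 0.35 ± 0.13 (adjusted p = 0.401). The lysosomal protease gene CTSD changed by 0.49 ± 0.11 and the transcription factor gene XBP1 by 0.34 ± 0.10, both with all 4 E2 arrays above all 4 vehicle arrays and with adjusted p of 0.0612 and 0.185. CTSD had an adjusted p of 0.0273 with the replicate block. ESR1 itself changed by 0.43 ± 0.13 (adjusted p = 0.23), between 8.05 and 8.77 in vehicle and between 8.61 and 9.13 in E2. Among 24 nuclear receptor and coregulator genes, PGR and GREB1 rose, none fell and the median change was 0.02. None of 21 steroid-converting enzyme genes was called, and their median was 0.03.

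Estrogen-repressed targets moved the other way, with 7 of 23 lower, none higher, 22 of 23 negative and a median of -0.37. These members too were chosen with earlier results of these data known, so the counts of direction are a description. EPAS1, which encodes the hypoxia-inducible factor HIF-2α, read 10.23 and 10.23 in the vehicle arrays against 9.41 and 9.16 in the E2 arrays with control siRNA, and 10.59 and 10.43 against 10.01 and 9.75 with 17β-HSD1 siRNA. The groups did not overlap, and the fall was to 0.579-fold (-0.79 ± 0.11, limma adjusted p = 0.00576). ERBB2, the HER2 receptor tyrosine kinase, was between 10.20 and 10.25 in the 4 vehicle arrays and at 9.46, 9.24, 9.80 and 9.52 in the E2 arrays. Its fall, to 0.605-fold (-0.72 ± 0.11, adjusted p = 0.00783), was larger than the spread of its vehicle arrays. The other called members were BCAS1 (0.572-fold), the stress-induced gene TP53INP1 (0.617-fold), the atypical cyclin gene CCNG2 (0.620-fold), the coregulator gene CITED2 (0.639-fold) and the adaptor gene BLNK (0.686-fold), with adjusted p from 0.0231 to 0.0441. NDRG1 missed the threshold at -0.66 ± 0.15 (adjusted p = 0.0567, 0.0224 with the block). The count of falls in this list was 1 without replicate 2 of 17β-HSD1 siRNA with E2, 4 without replicate 1 of control siRNA with E2 and 3 without each of 4 other arrays (replicate 1 of control siRNA with vehicle, replicate 2 of control siRNA with E2, replicate 2 of 17β-HSD1 siRNA with vehicle and replicate 1 of 17β-HSD1 siRNA with E2).

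Cell cycle genes made up the bulk of the rises. Over 337 measured members of the 10 cell cycle lists, 137 rose, none fell, 313 had a positive change and the median was 0.46, against a median of -0.02 for all genes. There were 91 risen members without replicate 2 of control siRNA with E2, 73 without replicate 1 of 17β-HSD1 siRNA with E2 and 66 without its replicate 2, with no fall in any of the 3 fits, and 55 of the 137 were called in all 8 fits that left out 1 array. Cell cycle lists differed in how many members passed, from 2 of 20 for genes of G1 to 26 of 34 for the mitotic kinases and cyclins.

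In G1, only CDC25A, a phosphatase that activates CDK2, and CCNE2, cyclin E2, rose, by 1.44-fold and 1.72-fold (limma adjusted p = 0.0231 and 0.0265). RBL1, which encodes the pocket protein p107, changed by 0.55 ± 0.13 (adjusted p = 0.0617, 0.0187 with the block). Of 19 genes of the E2F, B-MYB and FOXM1 factors and their partners, 5 rose. FOXM1, the forkhead factor of G2 and M phase genes, read 8.73 and 9.11 in the vehicle arrays against 9.63 and 10.09 in the E2 arrays with control siRNA, and 8.73 and 8.31 against 9.49 and 9.45 with 17β-HSD1 siRNA. Its rise was 1.93-fold (0.95 ± 0.14, adjusted p = 0.00783). MYBL2, which encodes B-MYB, also rose 1.93-fold, E2F7, a repressor of the E2F family, 1.67-fold, LIN9, a subunit of the complex through which B-MYB acts, 1.59-fold, and CENPF, a kinetochore gene kept in this list as a FOXM1 target, changed by 0.82. The count fell to 1 of 19 without replicate 1 of 17β-HSD1 siRNA with E2, and likewise without its replicate 2. With the replicate block 7 of the 19 rose. Of the 20 genes of G1, 3 rose with the block, 1 without replicate 1 of 17β-HSD1 siRNA with vehicle, and none without either E2 array of 17β-HSD1 siRNA or without replicate 2 of control siRNA with vehicle or with E2.

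Of 52 DNA replication genes 19 rose, and all 52 had a positive change, from 0.02 to 0.97, with a median of 0.42. CDC6, which loads the replicative helicase onto origins, read 8.50 and 8.66 in the vehicle arrays against 9.24 and 9.62 in the E2 arrays with control siRNA, and 7.78 and 7.63 against 8.85 and 8.76 with 17β-HSD1 siRNA. Both media had lower values with 17β-HSD1 siRNA, and the 4 E2 arrays still lay above the 4 vehicle arrays. CDC6 rose 1.96-fold (0.97 ± 0.12, limma adjusted p = 0.00252). GINS2 and POLE2, a subunit of the helicase complex and one of DNA polymerase epsilon, rose 1.87-fold and 1.88-fold, the initiation factor MCM10 1.86-fold and the primase gene PRIM1 1.76-fold. The helicase subunits MCM6 and MCM7 both rose 1.59-fold and PCNA, the sliding clamp, 1.63-fold. The count in this list was 5 without replicate 1 of 17β-HSD1 siRNA with E2, 10 without its replicate 2, 9 without replicate 2 of control siRNA with E2 and 12 without replicate 2 of control siRNA with vehicle. For nucleotide synthesis 4 of 28 rose: thymidylate synthase, TYMS (2.08-fold, 1.06 ± 0.13), the ribonucleotide reductase subunits RRM2 (1.94-fold) and RRM1 (1.43-fold), and the thymidine kinase TK1 (1.60-fold), while the folate cycle genes MTHFD2, at 0.48, and MTHFD1, at 0.47, were not called. With the replicate block 7 of the 28 rose, and 2 did without replicate 2 of control siRNA with E2 or without either E2 array of 17β-HSD1 siRNA.

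The share of risen members was highest among mitotic kinases, cyclins and checkpoint genes, where 26 of 34 rose and 33 of 34 had a positive change, with a median of 0.83 (17 rose without replicate 2 of 17β-HSD1 siRNA with E2). PLK1, the Polo-like kinase, read 8.82 and 8.82 in the vehicle arrays against 10.05 and 10.03 in the E2 arrays with control siRNA, and 8.52 and 7.94 against 9.54 and 9.21 with 17β-HSD1 siRNA. Even its lowest E2 array was above its highest vehicle array. PLK1 rose 2.27-fold (1.18 ± 0.14, limma adjusted p = 0.00251). The kinase gene PBK had the largest rise of the list, 2.57-fold (1.36 ± 0.13). Next to it were the cyclins CCNB2 (2.17-fold), CCNA2 (2.02-fold) and CCNB1 (2.01-fold), the checkpoint kinases TTK (2.17-fold) and BUB1 (2.06-fold), Aurora A, AURKA (1.85-fold), and CDC20 (1.78-fold), an activator of the anaphase-promoting complex. AURKB, the Aurora kinase of the chromosomal passenger complex, named here after its values were seen, was not called at 0.54 ± 0.13 (adjusted p = 0.0786, 0.0432 with the block), although its E2 and vehicle arrays did not overlap.

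At the kinetochore 14 of 34 rose, with a median of 0.55. NUF2 and NDC80, subunits of the complex that holds microtubules, rose 2.21-fold and 2.13-fold, SGO1, which protects cohesion at the centromere, 2.19-fold and SKA3 2.00-fold. Of 34 spindle, kinesin and cytokinesis genes 23 rose, with a median of 0.81. KIF18A, a kinesin that damps chromosome movement, rose 2.09-fold, KIF11, which separates the spindle poles, 2.02-fold, KIF23 and RACGAP1, partners at the midzone in cytokinesis, 1.86-fold and 1.70-fold, and the depolymerising kinesin gene KIF2C 1.81-fold. The count for this list was 14 without replicate 1 of 17β-HSD1 siRNA with vehicle, 15 without replicate 1 of 17β-HSD1 siRNA with E2 and 10 without its replicate 2. That of the kinetochore list was 7 without the last of these arrays, and 8 without replicate 1 of 17β-HSD1 siRNA with E2, replicate 1 of control siRNA with vehicle or replicate 2 of control siRNA with E2. HMMR, a spindle gene also named after its values were seen, changed by 0.98 ± 0.22 and had an adjusted p of 0.0545, or 0.00627 with the block.

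Genes that shape chromosomes followed, with 15 of 33 condensin, cohesin and chromatin genes higher and a median of 0.46. That count was 3 without replicate 2 of 17β-HSD1 siRNA with E2, 5 without its replicate 1, 6 without replicate 2 of control siRNA with E2, and 8 without either vehicle array of control siRNA or replicate 2 of 17β-HSD1 siRNA with vehicle. CDCA5, or sororin, which stabilises cohesin, rose 2.18-fold (1.12 ± 0.11, limma adjusted p = 0.000918), TOP2A, topoisomerase IIα, 1.88-fold, NCAPH of condensin 1.74-fold, HMGB2 1.69-fold, ESCO2, an acetyltransferase of cohesin, 1.60-fold and EZH2, the Polycomb methyltransferase, 1.51-fold. Replication-dependent histones, made in S phase, rose in 20 of 47 cases, with 45 of 47 positive. There were 12 such rises without either E2 array of 17β-HSD1 siRNA and 13 without replicate 1 of control siRNA with vehicle. H2AC4 read 8.45 and 8.69 in the vehicle arrays against 9.49 and 9.54 in the E2 arrays with control siRNA, and 8.06 and 7.82 against 9.05 and 8.96 with 17β-HSD1 siRNA. Its rise was 2.01-fold (1.00 ± 0.11), next to 2.04-fold for H2BC14, 1.99-fold for H3C2 and 1.91-fold for the linker histone gene H1-5. Members of this family are near-identical in sequence, so their probe sets may share signal and their count is uncertain. Of 38 DNA repair and Fanconi anaemia genes 10 rose (6 without replicate 1 and 4 without replicate 2 of 17β-HSD1 siRNA with E2), with a median of 0.35: the checkpoint kinase CHEK1 (1.84-fold), FANCI (1.80-fold), the ubiquitin-conjugating enzyme gene UBE2T (1.78-fold), BRCA1 (1.72-fold) and the helicase gene BLM (1.70-fold) among them.

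**Figure D2:**
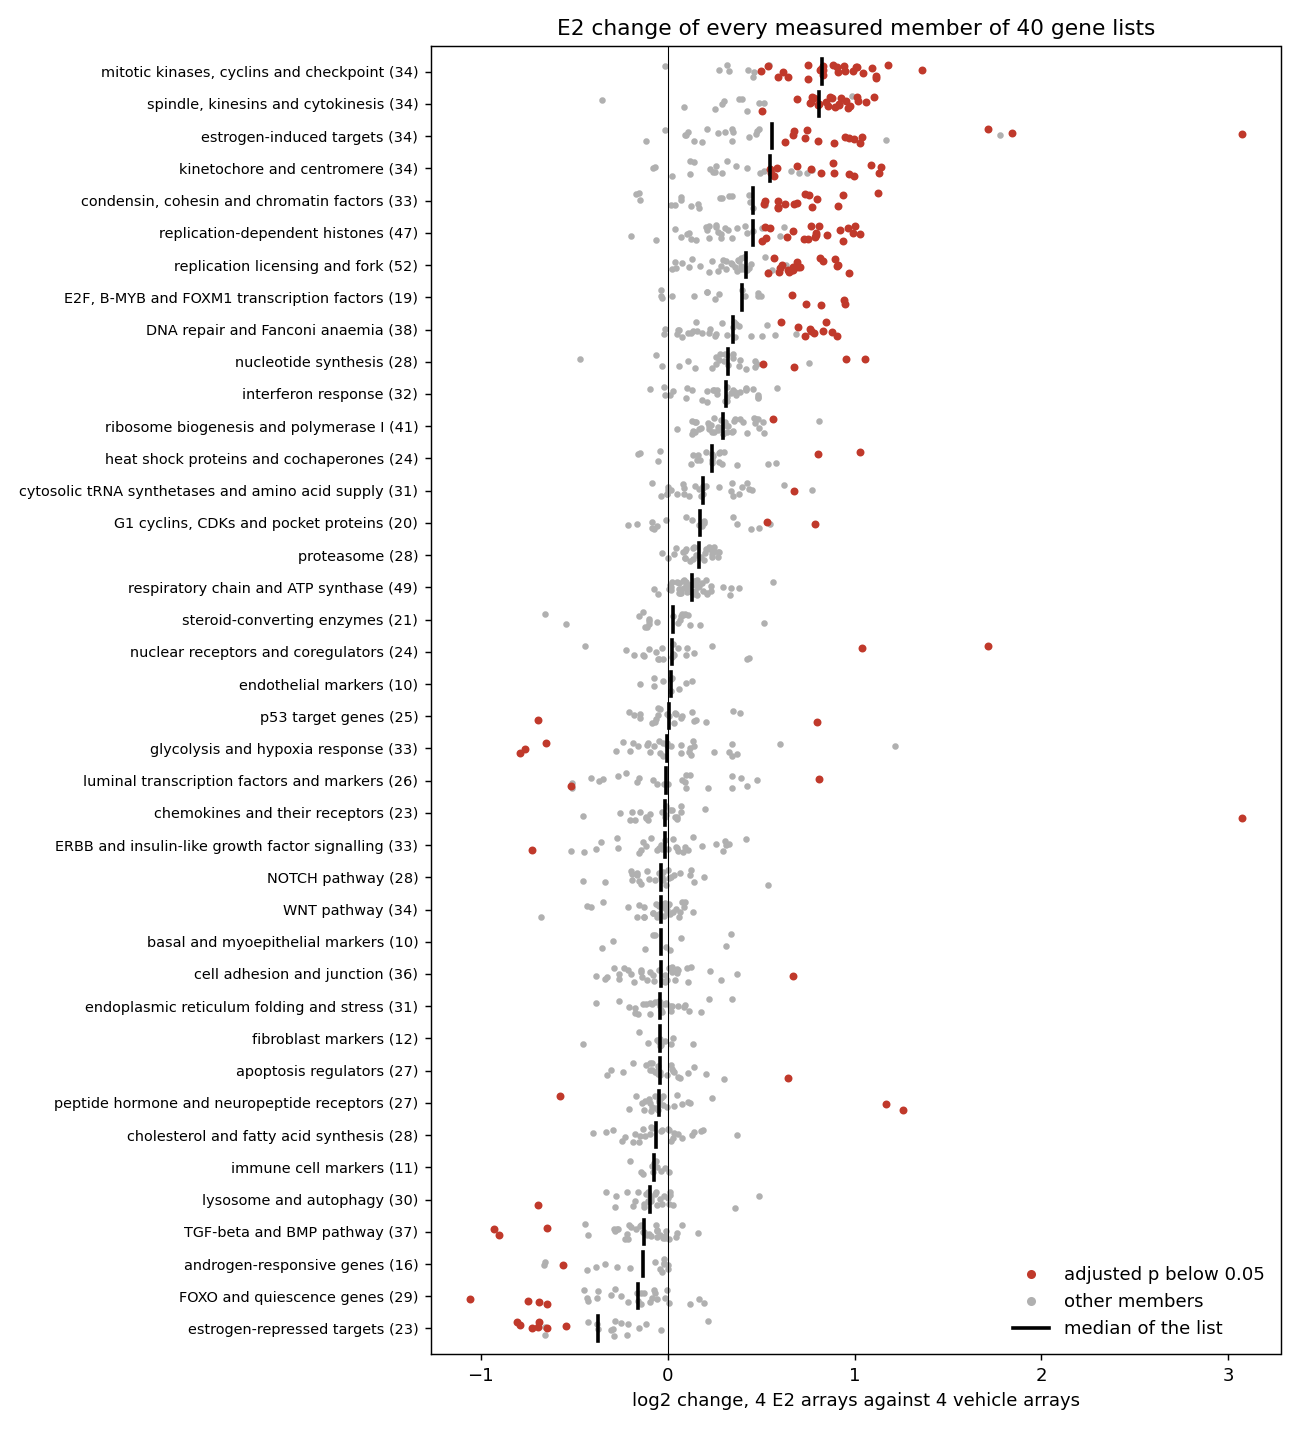
Log2 change between 4 E2 arrays and 4 vehicle arrays (x axis) of every measured member of 40 gene lists (rows, with the number measured), ordered by median. Red points passed an adjusted p of 0.05, grey points did not, and black ticks are medians. The mitotic list has a median of 0.83 with 26 of 34 members in red, and the estrogen-repressed list has a median of -0.37.

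To show what promoters of these genes hold, windows from 250 bases before to 50 after the start, from RefSeq on GRCh38.p14, were searched on both strands. They were found for 14239 of the 18417 genes. The CHR (TTTGAA or TTCGAA), where the complex of LIN9 and B-MYB binds in promoters of mitotic genes, was in 71.2% of promoters of risen genes of the 3 mitosis lists (37 of 52) and in 13.3% of all measured promoters. It was in 1 of 18 promoters of risen replication genes (5.56%), but also in 7 of 17 of risen histone genes (41.2%) and 4 of 9 of risen DNA repair genes (44.4%). Of risen genes in no cell cycle list, 24 of 94 had it (25.5%). Risen genes outside those lists still include genes of the cell cycle, such as MKI67 and CDKN3. No share was taken for list members that did not rise, so the shares were not tied to the E2 call. Between the mitosis and replication genes the E2F motif (TTTCCCGC, TTTGGCGC, TTTCGCGC or TTTGCCGC) had the opposite placement. It was in 66.7% of the risen replication genes (12 of 18), 11.5% of the risen mitosis genes and 4.52% of all. A CCAAT box (CCAAT) was in 94.1% of the risen histone genes (16 of 17), 69.2% of the risen mitosis genes and 36.3% of all, and CHR and CCAAT box stood together in 53.8% of the mitosis genes and 5.44% of all. A match is only a run of letters and not a bound site. E2F matches on opposite strands can overlap each other, and the CHR, CCAAT box and E2F strings do not contain one another.

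Shown first are the 150 bases before the start of 3 risen mitosis genes with a single CHR and a single CCAAT box in capitals (ATTGG is the box read from the other strand), on the plus strand for KIF23 (chr15:69414199-69414348) and PLK1 (chr16:23678739-23678888) and on the minus strand for KIF18A (chr11:28108157-28108306). The box lay upstream of the CHR in each of them, with the CHR beginning 55, 29 and 10 bases before the start.
KIF23: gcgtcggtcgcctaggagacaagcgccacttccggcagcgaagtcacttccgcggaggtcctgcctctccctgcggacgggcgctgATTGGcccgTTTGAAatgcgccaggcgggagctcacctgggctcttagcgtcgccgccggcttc
PLK1: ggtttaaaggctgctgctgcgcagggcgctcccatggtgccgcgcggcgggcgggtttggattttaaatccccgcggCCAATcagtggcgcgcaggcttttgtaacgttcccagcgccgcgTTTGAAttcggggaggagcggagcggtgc
KIF18A: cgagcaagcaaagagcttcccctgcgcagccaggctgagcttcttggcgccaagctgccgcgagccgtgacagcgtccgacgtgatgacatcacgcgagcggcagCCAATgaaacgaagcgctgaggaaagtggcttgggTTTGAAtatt

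The same stretch of 3 risen replication genes, all on the minus strand, has E2F motifs in capitals: GINS2 (chr16:85688955-85689104), MCM6 (chr2:135876444-135876593) and MCM7 (chr7:100101398-100101547). MCM6 has 3 matches, of which 2 overlap on opposite strands.
GINS2: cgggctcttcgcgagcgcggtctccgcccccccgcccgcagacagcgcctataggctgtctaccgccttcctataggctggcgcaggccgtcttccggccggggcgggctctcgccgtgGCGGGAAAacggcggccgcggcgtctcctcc
MCM6: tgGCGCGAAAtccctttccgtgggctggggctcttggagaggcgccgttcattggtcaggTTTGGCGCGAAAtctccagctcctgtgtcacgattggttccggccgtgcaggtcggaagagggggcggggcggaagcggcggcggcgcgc
MCM7: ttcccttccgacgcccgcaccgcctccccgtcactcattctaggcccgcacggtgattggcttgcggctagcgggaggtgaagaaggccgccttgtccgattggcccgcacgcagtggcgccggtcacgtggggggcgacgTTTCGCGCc

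The consensus estrogen response element, a palindrome of inverted arms, was in 3 of the 14239 windows and in none of the 211 windows of risen genes, which says only that these letters are not in those windows. A single arm (AGGTCA), which a full element can contain, was in 9.0% of the windows of risen genes and in 11.1% of all, in 1 of 10 windows of the risen estrogen-induced targets and in 3 of 9 windows of the risen DNA repair genes (33.3%).

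**Figure D3:**
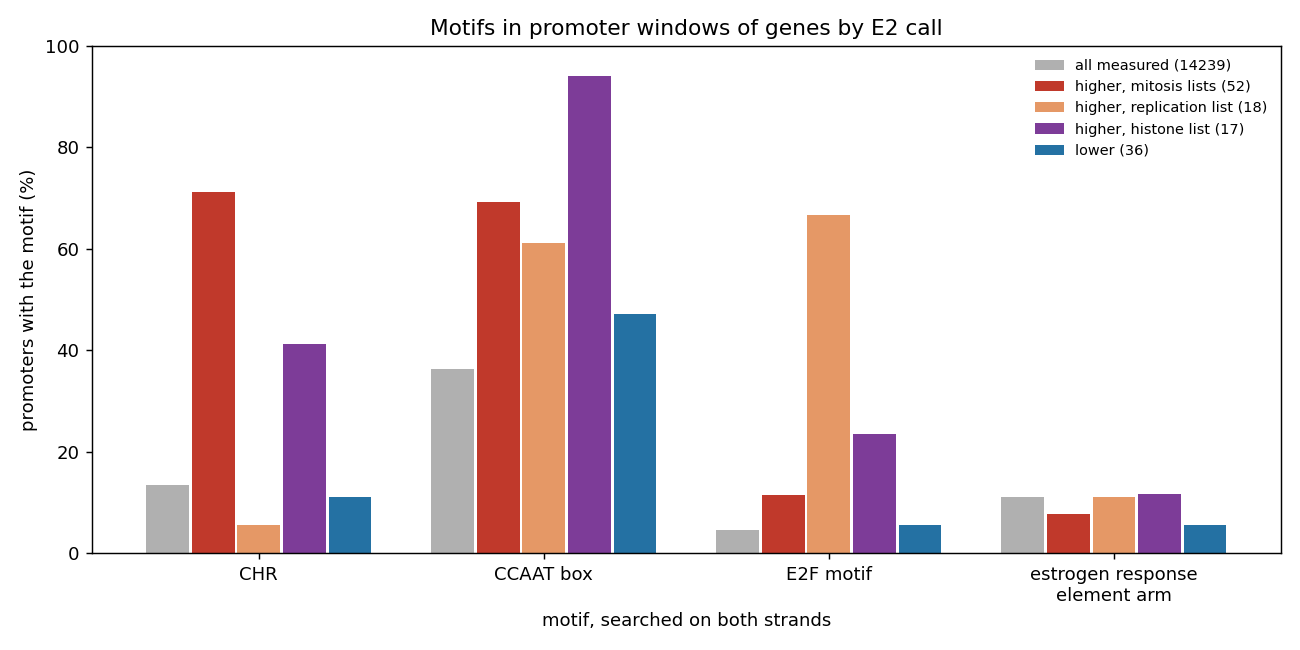
Share of promoter windows (y axis, percent) that hold each of 4 motifs (x axis), for all measured genes and for genes called higher or lower with E2 (the number of windows is in the legend). The CHR bar is at 71.2% for the mitosis lists and the E2F bar at 66.7% for the replication list, against 13.3% and 4.52% for all genes, and the 5 bars drawn for the single estrogen response element arm run from 5.56% to 11.8%.

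Lists of growth and metabolism held few calls. Over 41 genes of ribosome biogenesis and RNA polymerase I, all changes were positive with a median of 0.29, and DKC1, the pseudouridine synthase dyskerin, was called (1.48-fold, limma adjusted p = 0.0481). Of these 41, 3 rose without replicate 1 of control siRNA with vehicle and none in 5 of the 8 fits that left out 1 array. SLC7A5 was the called gene of 31 tRNA synthetase and amino acid supply genes, whose median was 0.19, and it was called in 1 of those 8 fits. Heat shock proteins and cochaperones had FKBP4 and HSPB8 called of 24 and a median of 0.24, and 4 were called with the replicate block. None of the 24 was called without replicate 2 of 17β-HSD1 siRNA with E2. There was 1 without its replicate 1, without replicate 1 of 17β-HSD1 siRNA with vehicle, and without replicate 2 of control siRNA with vehicle or with E2, and HSPB8 was called in 1 of the 8 fits. The respiratory chain (0 of 49) and the proteasome (0 of 28) had small positive medians, 0.13 and 0.17, and both came to 0.02 and 0.03 without replicate 1 of 17β-HSD1 siRNA with vehicle, whose own list medians were -0.34 and -0.44 relative to each gene's mean over the arrays. Genes of cholesterol and fatty acid synthesis (0 of 28, median -0.06) and of folding in the endoplasmic reticulum (0 of 31, median -0.04) were not called.

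Of 33 glycolysis and hypoxia genes 3 fell and none rose, around a median of -0.01. The falls came to 1 without either E2 array of 17β-HSD1 siRNA, without replicate 1 of control siRNA with vehicle or without replicate 2 of control siRNA with E2. EPAS1 fell, as did EGLN3, the prolyl hydroxylase that marks hypoxia-inducible factors for degradation (0.589-fold, limma adjusted p = 0.0234), and DDIT4, an inhibitor of mTORC1 (0.638-fold, adjusted p = 0.0347). PFKFB3, which makes the activator of phosphofructokinase, read from 7.88 to 8.73 in the vehicle arrays and from 8.90 to 10.13 in the E2 arrays, without overlap. Replicate 1 lay above replicate 2 in all 4 groups. Its change of 1.22 ± 0.29 had an adjusted p of 0.0778, and with the block the SE was 0.12 and the adjusted p 0.000832, against 0.0535 with the crossed block.

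FOXO and quiescence genes had 4 of 29 lower, none higher and a median of -0.16. There was 1 fall without replicate 2 of 17β-HSD1 siRNA with E2, and there were 2 without its replicate 1, replicate 2 of 17β-HSD1 siRNA with vehicle, replicate 1 of control siRNA with vehicle or replicate 2 of control siRNA with E2. FBXO32, the ubiquitin ligase subunit atrogin-1 and a textbook FOXO target, read 9.78 and 10.48 in the vehicle arrays against 8.60 and 9.02 in the E2 arrays with control siRNA, and 10.28 and 10.52 against 9.50 and 9.69 with 17β-HSD1 siRNA. No E2 array reached the lowest vehicle array. It fell to 0.480-fold (-1.06 ± 0.16, limma adjusted p = 0.00787). KLHL24 fell to 0.596-fold, CCNG2 to 0.620-fold and BTG1, an antiproliferative gene, to 0.639-fold (adjusted p = 0.0106, 0.0441 and 0.0491). The E2 and vehicle arrays of BTG1 overlapped. Of 37 TGF-beta and BMP pathway genes 3 fell and 32 had a negative change, and only 1 fell when any of the 4 arrays with 17β-HSD1 siRNA was left out. BAMBI, a decoy receptor, fell to 0.526-fold (-0.93 ± 0.14), LTBP1, which binds latent TGF-beta, to 0.536-fold and the ligand TGFB2 to 0.639-fold. In the ERBB and insulin-like growth factor list ERBB2 was the called gene of 33. ERBB3, its partner, changed by -0.45 ± 0.11 (adjusted p = 0.0744, 0.0439 with the block) and IGF1R by 0.42 ± 0.10 (adjusted p = 0.0735), each with groups that did not overlap, and with the replicate block 3 of the 33 fell, against none without replicate 2 of 17β-HSD1 siRNA with E2.

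Other signalling lists had few calls. CXCL12 was the called gene of 23 chemokines and chemokine receptors, and the median of that list was -0.01. Of 27 peptide hormone and neuropeptide receptors, GRPR, the gastrin-releasing peptide receptor, rose 2.25-fold (1.17 ± 0.13, limma adjusted p = 0.00226), NPY1R, a neuropeptide Y receptor, rose 2.39-fold (1.26 ± 0.24, adjusted p = 0.0267) and VIPR1, a receptor of vasoactive intestinal peptide, fell to 0.670-fold. The p53 targets TP53I3 (1.74-fold) and TP53INP1 (0.617-fold) went in opposite directions, and 25 such genes had a median of 0.01. BIRC5, survivin, rose 1.56-fold and ITGA6, the integrin α6 gene, 1.59-fold, each as the called gene of its list of apoptosis or adhesion genes, while the other probe set of BIRC5 changed by 0.06. Of the 8 fits that left out 1 array, CXCL12 and GRPR were called in all 8, NPY1R in 4, TP53I3 in 3, and VIPR1, TP53INP1, BIRC5 and ITGA6 in 2 each. No gene of the WNT (34) or NOTCH (28) list was called. Interferon response genes had no call among 32 and a median of 0.31, which was 0.00 without replicate 2 and 0.56 (with 3 genes called higher) without replicate 1 of control siRNA with E2. Their median level rose and fell with the array within groups, from -0.92 in replicate 1 to 0.15 in replicate 2 of control siRNA with E2, relative to each gene's mean.

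Luminal identity genes stayed near a median of -0.01, with 2 of 26 called. AGR3, a secreted disulfide isomerase relative, rose 1.75-fold and MLPH, melanophilin, fell to 0.698-fold (limma adjusted p = 0.0319 for both), in 2 and 1 of the 8 fits that left out 1 array. With the replicate block 3 of the 26 luminal genes were lower and 1 was higher (0.592% and 1.94% of all genes). All 4 E2 arrays lay below all 4 vehicle arrays for 3 of the 26 (2.08% of all genes) and above them for 2 (2.99%). STEAP4, a metalloreductase, was the called gene of 16 androgen-responsive genes (0.678-fold), of which 2 had a positive change, and 3 of the 16 fell with the replicate block. None fell in 6 of the 8 fits that left out 1 array, all but those without replicate 2 of either vehicle group.

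Genes outside every list made up 99 of the rises and 27 of the falls. PXK, which encodes a phox-domain protein with a kinase-like fold, read 8.41 and 7.71 in the vehicle arrays against 9.56 and 9.82 in the E2 arrays with control siRNA, and 7.35 and 8.11 against 9.16 and 9.60 with 17β-HSD1 siRNA, a rise of 3.12-fold (1.64 ± 0.20, limma adjusted p = 0.00252). SERPINA6, the corticosteroid-binding globulin of plasma, was at 10.94 and 10.90 against 11.77 and 12.46 with control siRNA and at 9.76 and 9.99 against 11.82 and 11.86 with 17β-HSD1 siRNA. Its vehicle arrays differed by siRNA, and its E2 arrays were above all of them, with a rise of 2.99-fold (1.58 ± 0.15, adjusted p = 0.000918). The RNA-binding protein gene RBM24 rose 2.92-fold, the semaphorin gene SEMA6A 2.91-fold, and KCTD6 2.75-fold. RAPGEFL1, of the family of RAP exchange factors, rose 2.33-fold and KCNH1, which encodes a voltage-gated potassium channel, 2.36-fold. CDKN3, a phosphatase of CDKs, rose 2.31-fold and TRIP13, an ATPase of the spindle checkpoint, 2.18-fold. FMN1, formin 1, rose 2.20-fold on its brighter probe set, but its other probe set changed by -0.10.

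Falls outside the lists were led by FSIP2, a sperm fibrous sheath gene, at 6.69 and 6.72 in the vehicle arrays against 5.33 and 5.56 in the E2 arrays with control siRNA, and 6.32 and 6.87 against 5.84 and 6.01 with 17β-HSD1 siRNA. It fell to 0.512-fold (-0.97 ± 0.13, limma adjusted p = 0.00475) on its brightest probe set. Its other probe sets changed by -0.71 and -0.43 and were not called (limma adjusted p = 0.0987 and 0.145). VTCN1, the immune checkpoint ligand B7-H4, fell to 0.530-fold, SOX2, a stem cell transcription factor gene, to 0.545-fold, RHOBTB1 to 0.561-fold, the sialyltransferase gene ST6GAL1 to 0.585-fold and NBEA, neurobeachin, to 0.609-fold. TCAF1 fell to 0.588-fold, TCP11L2 to 0.608-fold, ADHFE1 to 0.616-fold and the mitochondrial carrier gene SLC25A16 to 0.617-fold. NFYB, which encodes a subunit of the factor that binds CCAAT boxes, fell to 0.616-fold and the stress gene NUPR1 to 0.609-fold. Adjusted p for these genes other than FSIP2 ran from 0.00812 to 0.049. The other probe sets of TCAF1 changed by -0.57 (limma adjusted p = 0.139, not called) and -0.70 (limma adjusted p = 0.0129).

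**Figure D4:**
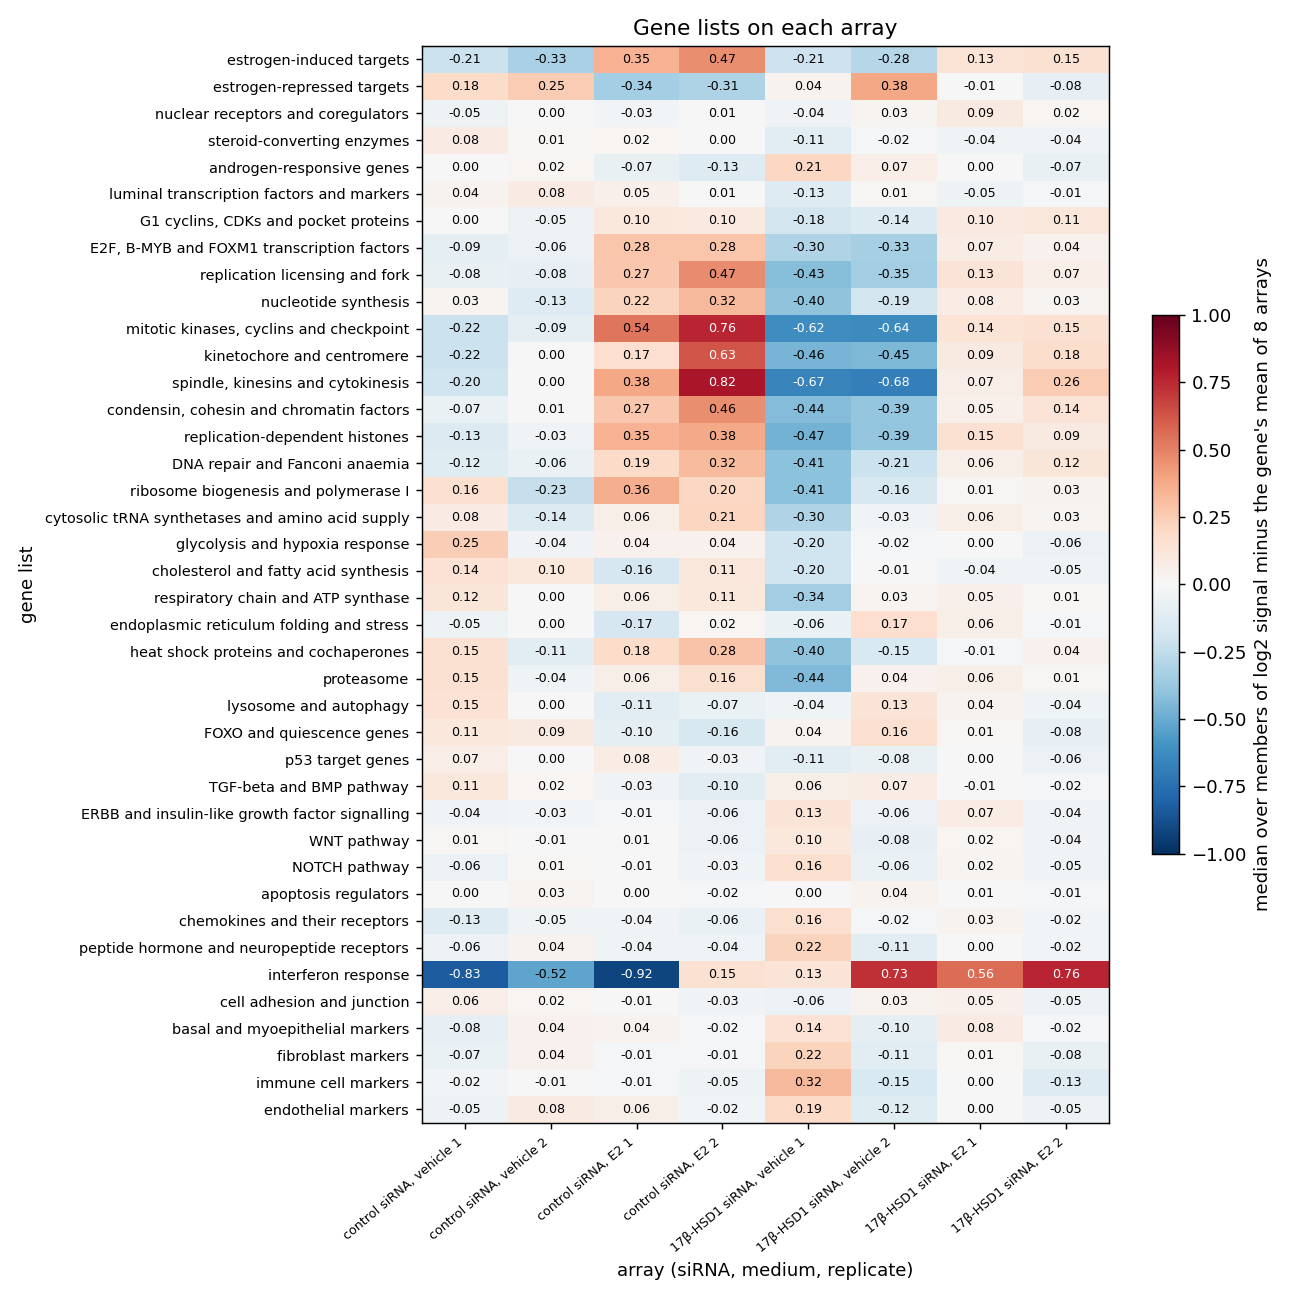
Median over the members of each of 40 gene lists (rows) of the log2 signal minus the gene's mean over 8 arrays, for each array (columns); red is higher and blue lower. The mitotic list is at -0.62 and -0.64 in the 17β-HSD1 siRNA, vehicle arrays and at 0.54 and 0.76 in the control siRNA, E2 arrays. The interferon list differs between arrays of the same group and between siRNAs.

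The E2 changes with the 2 siRNAs had no array in common, but their calls were not separate. They came from 1 fit, in which the 4 groups shared an estimate of the spread. With control siRNA 13 genes were higher (0.0706%) and 3 lower (0.0163%), and with 17β-HSD1 siRNA 52 were higher (0.282%) and none lower (0). Of the 21214 tested probe sets, 1261 passed an unadjusted limma p of 0.05 with control siRNA and 959 with 17β-HSD1 siRNA. All 16 genes called with control siRNA had the same sign with 17β-HSD1 siRNA, with a median size of 1.27 and 1.04, and all 52 called with 17β-HSD1 siRNA had the same sign with control siRNA, with a median size of 1.11 and 0.92. The 11 genes called with both were 68.75% of the first list and 21.15% of the second. Across all 18417 genes, which are not independent, the changes with the 2 siRNAs correlated at 0.593. The share of all genes with the same sign under both siRNAs was not taken, so the same-sign counts were not tied to the call. No gene was called for a difference between siRNAs by limma (0 of 18417, 0), and at an unadjusted p below 0.05 there were 140 of 21214 probe sets. With 2 arrays per group, the absence of calls does not show that the responses were equal. No probe set was called with 17β-HSD1 siRNA when any of its own 4 arrays was left out. With control siRNA the count of probe sets was 18, and 2 to 16 were called when 1 of its own arrays was left out. With the replicate block 127 probe sets were called with control siRNA and 111 with 17β-HSD1 siRNA, against 18 and 57 without it.

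CXCL12 changed by 3.04 with control siRNA and 3.11 with 17β-HSD1 siRNA and PGR by 1.04 with each, whereas GREB1 changed by 2.06 and 1.37, RERG by 1.28 and 0.61, SERPINA6 by 1.19 and 1.96 and GRPR by 0.85 and 1.49. Among the 45 genes lower in the averaged contrast, 42 had the larger fall with control siRNA, with medians of -0.91 and -0.49, and 41 did so without replicate 1 of 17β-HSD1 siRNA with vehicle, where the second median was -0.64. TGFB2 changed by -1.14 and -0.15, BTG1 by -1.02 and -0.28 and CITED2 by -0.95 and -0.34. The 45 genes had a median difference between 17β-HSD1 siRNA and control siRNA of 0.01 in vehicle and 0.37 in E2. For the 137 risen cell cycle genes the medians were 0.75 with control siRNA and 0.86 with 17β-HSD1 siRNA, 105 of them had the larger rise with 17β-HSD1 siRNA, and their level with that siRNA was lower in both media, with a median difference of -0.53 in vehicle and -0.43 in E2. The 120 other risen genes had no such lean, with 59 larger with control siRNA and 61 with 17β-HSD1 siRNA. These 120 are in no cell cycle list but still include genes of the cell cycle, such as MKI67 and CDKN3. Without replicate 1 of 17β-HSD1 siRNA with vehicle, 71 of the 120 were larger with control siRNA. Of all 18417 genes, 9153 had the higher change with control siRNA and 9264 with 17β-HSD1 siRNA. None of these genes passed the limma test of the difference, in which 11 of the 45 had an unadjusted p below 0.05, against 109 of all 18417. So did 0 of the 137 risen cell cycle genes and 8 of the 120 other risen genes. Called genes were picked by the same fit, whose estimate of the spread also enters this test. Their shares are thus not comparable with that of all genes. The opposite lean of the risen cell cycle genes and the fallen genes is therefore a description.

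**Figure D5:**
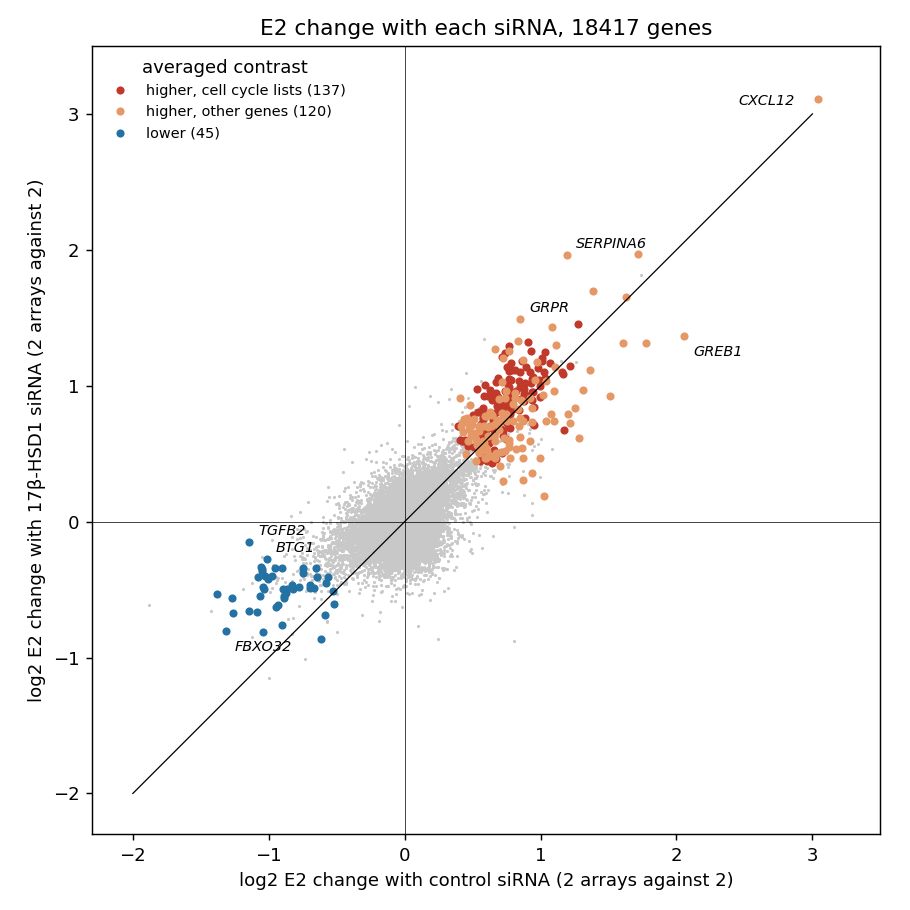
Log2 E2 change with control siRNA (x axis) and with 17β-HSD1 siRNA (y axis), each 2 arrays against 2, for 18417 genes, with genes called in the averaged contrast in colour and the line of equality in black. CXCL12 lies on the line near 3, and 42 of the 45 blue points (lower with E2) lie above the line, where the fall with control siRNA was the larger.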

How the data were processed

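Labelled cDNA from 8 T47D RNA samples was hybridised to Affymetrix Human Gene 1.0 ST arrays, per the labels' protocols. The authors deposited 33297 probe sets on a log2 scale, read from the values (2.42 to 15.2). How the authors summarised, background-corrected and normalized them is not given in the sources used here. They were tested as deposited. Array medians ran from 7.25 to 7.37. Precision is limited by the number of arrays (4 residual degrees of freedom), and no detection calls were used.

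Probe sets were named from the platform annotation, with symbols checked against RefSeq names (GRCh38.p14): 19460 had 1 symbol, 1754 several and 12083 none. The 21214 with a symbol were tested with limma 3.58.1 in R 4.3.3 (lmFit with a coefficient per group, eBayes), Benjamini-Hochberg over them, calls at an adjusted p below 0.05. The probe set with the highest mean stood for a gene, and none with several symbols was named. Folds are 2 to the power of the log2 difference. The labels say that replicates came from independent cell cultures, but not that a replicate number marks the same experiment in each group. Same-numbered deviations from group means correlated between -0.20 and 0.44 over the 6 pairs of groups, which does not settle it. The main fit has no block, and the block, which reads a number as an experiment, is an alternative.

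The lists and named genes were chosen with earlier results of these data known. The rule for named genes selects 344: up to 20 genes per direction with the largest changes among called genes without overlap, up to 6 per list with the smallest p, any called list member, and ESR1, PGR, GREB1, TFF1, CCND1, MYC, CXCL12 and HSD17B1. The text gives 126 of them and 13 others, and the rest by counts, so which list members are printed was chosen with their values known. On simulated data over these probe sets 86 of 100 changes of 1 and 15 of 100 changes of 0.5 were called, with 4 false calls of 105. The simulated noise was normal and independent for each probe set and array, with no effect shared by an array or replicate. These counts therefore do not give the share of false calls on the real arrays.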

Additional observations from a re-analysis of the deposited data

How the results depend on the processing

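Over the alternatives run, no probe set was called for a difference between siRNAs. The averaged contrast, with 281 higher and 48 lower probe sets, gave 95 and 4 with all probe sets of the table, which adds the 12083 unnamed ones, 114 and 8 at an adjusted p below 0.01, 393 and 116 with the replicate block, and 218 and 20 with arrays centred on their medians. Leaving out each array gave 112 to 286 higher and 9 to 77 lower. The E2 contrast with control siRNA, with 18 called, gave 1 with all probe sets, 4 below 0.01, 1 with centred arrays, 5 with quantile normalization, 29 without the dimmest 25%, 28 with 1 probe set per gene, 39 with a trended robust spread, 127 with the replicate block, 55 with the crossed block and 2 to 26 without an array. With 17β-HSD1 siRNA, the 57 calls became 0 with all probe sets, 0 below 0.01, 33 with quantile normalization, 111 with the block and 0 to 79 without an array. The causes were not tested. The replicate block kept all 302 averaged gene calls and added 165. Of 139 genes named with values in the text, only HSD17B1, at -0.10, changed sign over these alternatives, to 0.071 without replicate 1 of control siRNA with vehicle and 0.038 without replicate 2 of control siRNA with E2, in a range from -0.27 to 0.071 over the arrays left out. Of the 344 genes that the naming rule selects, 10 changed sign when an array was left out, none of them called.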

Other observations

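The genes of these paragraphs were chosen after their values were seen. Outside the lists, MKI67, the gene of the proliferation marker Ki-67, read 8.84 and 9.08 in the vehicle arrays against 9.81 and 10.05 in the E2 arrays with control siRNA, and 8.49 and 8.01 against 9.35 and 9.49 with 17β-HSD1 siRNA, a rise of 2.10-fold (1.07 ± 0.13, limma adjusted p = 0.0029). PCLAF, a partner of the sliding clamp, rose 2.12-fold, DTL, which directs replication factors to degradation, 2.01-fold and CKS2, a subunit of CDK complexes, 2.00-fold. The other probe set of PCLAF changed by 0.59 (limma adjusted p = 0.0197). Other risen genes were THBS1, the matrix protein thrombospondin 1, at 2.06-fold (adjusted p = 0.0182) and APOBEC3B, a cytidine deaminase, at 1.83-fold (adjusted p = 0.0077).

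For 7 genes with a change of 2-fold or more, the fit with the replicate block made a call and the one without it did not. CDH10, a cadherin gene, had the largest fall in size of any gene in the averaged contrast, and its log2 signal read 8.90 and 10.49 in the vehicle arrays against 6.95 and 8.67 in the E2 arrays with control siRNA, and 10.16 and 11.18 against 9.77 and 10.34 with 17β-HSD1 siRNA. Replicate 2 was above replicate 1 in each group, the reverse of PFKFB3. Its change was -1.25 ± 0.40 (adjusted p = 0.247) without the block and had an SE of 0.17 (adjusted p = 0.00287) with it. SLITRK6 (-1.08 ± 0.25, adjusted p = 0.0612, 0.00241 with the block) and IL1R1, an interleukin-1 receptor gene (-1.05 ± 0.24, adjusted p = 0.064, 0.00636 with the block), had the same order of replicates. The other 4 were MYC, STC2, PFKFB3 and CYP4Z2P. Each of the 7 except CYP4Z2P was also called without the block when replicate 1 of control siRNA with vehicle was left out, and CYP4Z2P was called in 3 other such fits. With the crossed block CYP4Z2P was called (adjusted p = 0.0369) and the other 6 were not, at an adjusted p from 0.0535 for PFKFB3 to 0.219 for CDH10.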
